A study of Mus musculus with 16 samples.

Results

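Bone marrow and cells labelled MSC were compared within wild-type (WT) mice, over 3 bone marrow libraries and 2 MSC libraries of a 16-library RNA-seq series. A gene was taken if it passed a filter on low counts in these 5 libraries, which left 15985 of the 55536 genes in the count table. Both groups carry the genotype label KLF WT. The same contrast in mice labelled KLF K74R, with 3 bone marrow and 2 MSC libraries, is given beside it. By its notation K74R puts arginine in place of lysine, the sample titles call these mice KO, and the gene has no fuller name there than KLF. Fold changes are bone marrow over MSC on the log2 scale, so a positive value means a higher level in marrow. The labels do not spell out MSC, and they do not say how these cells were isolated, whether they were cultured, or how the marrow was collected. Tissue and preparation therefore cannot be told apart in this contrast. Whether libraries of a group came from separate mice is not stated, so the p-values rest on a spread between libraries that may be technical alone.

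Bone marrow makes red cells, granulocytes, platelets and B cells from stem and progenitor cells, and holds monocytes, macrophages, endothelium and a sparse reticular stroma that secretes Cxcl12 and Kitl. MSC is the usual short form for mesenchymal stromal cells, fibroblast-like cells that lay down collagen and can form bone, fat and cartilage cells. Such cells are in part defined by the lack of blood cell antigens, first of all Cd45, the product of Ptprc.

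Total counts were between 14079626 and 15858275 in marrow and were 17104435 and 15965993 in MSC. The counts of any pair of libraries of a group differed by more than sampling noise, with a chi-square per degree of freedom of at least 14.5 in marrow and of 46.7 in MSC, and each library was counted on its own. The number of libraries limits the precision more than the depth does. A count of 0 over a group allows up to 3 counts, which is 0.0651 CPM (the usual unit of counts per scaled library total) in marrow and 0.0922 CPM in MSC, and these limits cover counting error only. Each such limit is over all libraries of its group, and leaving out 1 of them raises it by construction.

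Marrow and MSC differed in most genes that were measured. With edgeR's quasi-likelihood test and Benjamini-Hochberg adjustment, 5822 genes were higher in marrow (36.4% of those tested) and 5552 were lower (34.7%), at an adjusted p under 0.05. Against a minimum of a 2-fold difference, edgeR's glmTreat called 3155 genes higher (19.7%) and 3333 lower (20.9%). The median log2 fold change over all genes tested was 0.08. Of the genes tested, 659 had no count in either MSC library, and all 659 were called higher. A further 130 had no count in any marrow library, and all 130 were called lower. Such genes pass the filter only through the other group, so their call was close to fixed by the filter. This bears on lists near absent from MSC, such as that of T and NK cells and that of eosinophils, basophils and mast cells. A count of called members in a gene list is read against the shares of all genes called higher and lower.

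**Figure D1:**
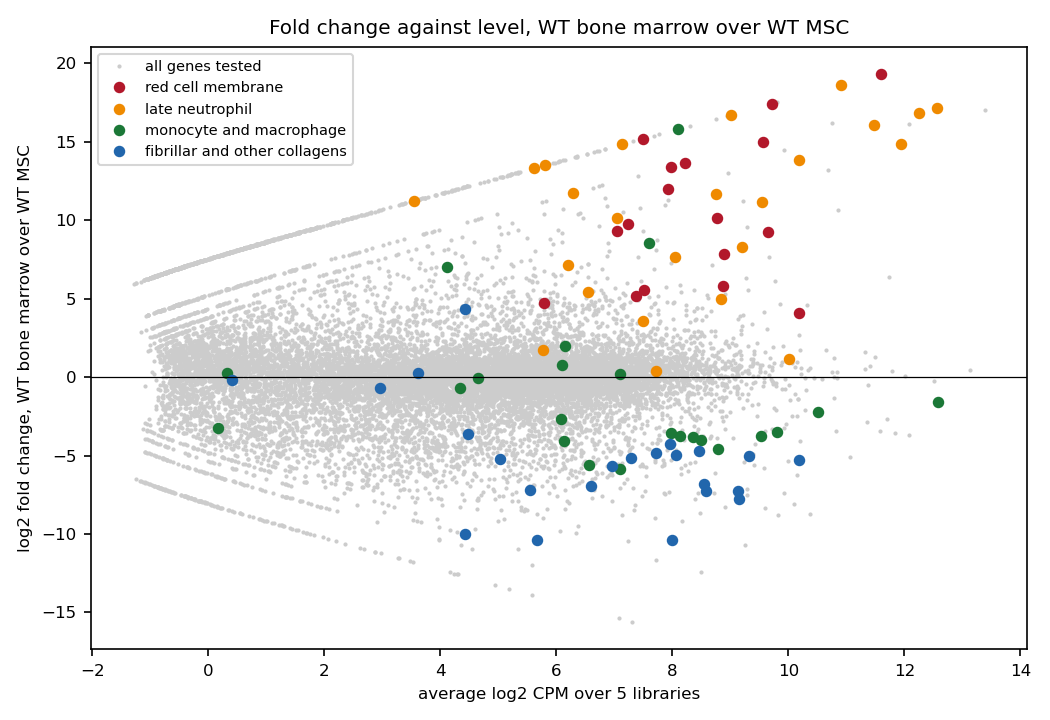
Log2 fold change (marrow over MSC, vertical axis) of the 15985 genes against their average log2 CPM over the 5 libraries (horizontal axis). Grey points are all genes, and coloured points are members of the red cell membrane, late neutrophil, monocyte and macrophage, and collagen lists. All members of the red cell membrane and late neutrophil lists lie above 0, and most collagen and macrophage genes lie below 0.

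The labels were checked against marker genes of the cell types that the samples could hold. Marrow held red cell and neutrophil transcripts at high levels and B cell transcripts at much lower levels, and MSC held almost none of them. The 5 erythroid markers summed to 31829, 29502 and 37519.5 CPM in marrow, against 0 and 0.645 CPM in MSC. The 6 neutrophil markers summed to 30930.1, 29955 and 31510.0 CPM in marrow, against 1.11 and 0.7099 CPM in MSC. The 4 B cell markers summed to 251, 377 and 197 CPM in marrow, against 1.06 and 1.87 CPM in MSC. No library of a group overlapped the other group in these 3 sums.

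The WT MSC libraries carried stromal and macrophage transcripts side by side. The 11 stromal markers include the collagen genes Col1a1 and Col1a2 and the receptor Pdgfra. They summed to 951, 1199.95 and 1045 CPM in marrow, against 8182 and 6289.5 CPM in MSC. In marrow most of that sum came from Cd44, with 493, 449 and 435 CPM, and Itgb1, with 325, 421 and 442 CPM. Cd44 was not called between the groups. The 7 macrophage markers, among them the growth factor receptor Csf1r and the complement genes C1qa, C1qb and C1qc, summed to 461, 585 and 585 CPM in marrow, against 8285 and 6520.2 CPM in MSC. These sums are over different genes and are no shares of cells. Ptprc had 701, 701 and 601 CPM in marrow, against 413 and 208 CPM in MSC, a log2 fold change of 1.10 with a standard error (SE) of 0.29 and an edgeR adjusted p of 0.012. The WT libraries labelled MSC thus held the transcript of an antigen whose absence is part of the usual definition. Here as in any bulk sample, fewer cells of a type and less RNA per cell cannot be told apart. The fold change of Ptprc was 1.67 without the first MSC library and 0.69 without the second.

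**Figure D2:**
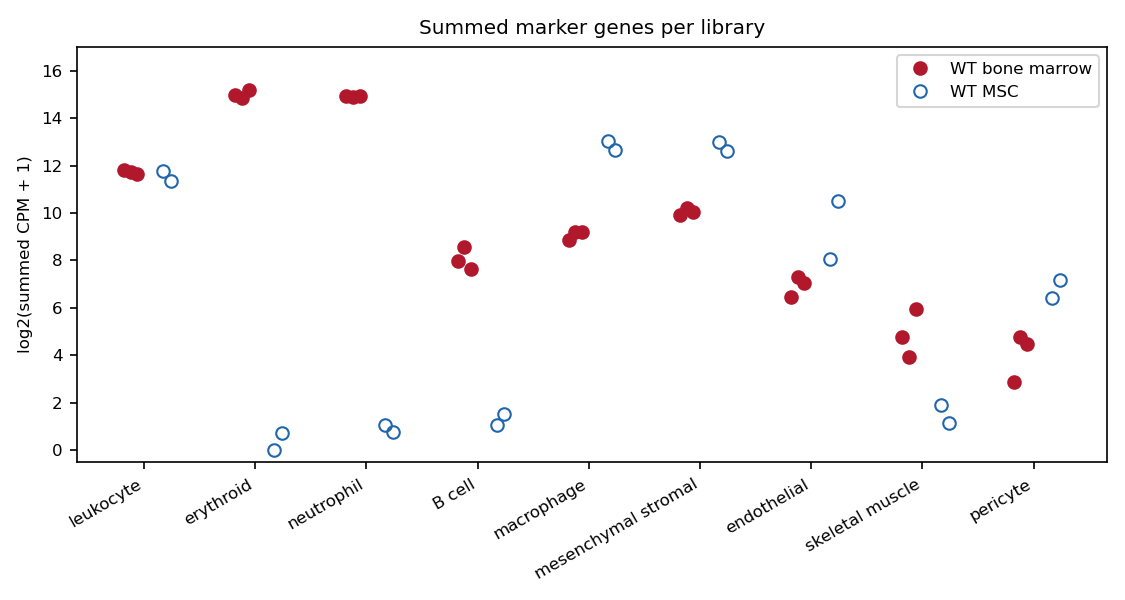
Summed CPM of the marker genes of 9 cell types in each library, on a log2(CPM + 1) scale, with marrow (filled circles, 3 libraries) left of MSC (open circles, 2 libraries). Erythroid, neutrophil and B cell sums are near 0 in MSC, the leukocyte sums overlap, and the macrophage and stromal sums are higher in both MSC libraries than in the 3 of marrow.

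The gene with the most counts in marrow, and the highest level per transcript length, was Hbb-bs, which encodes an adult beta-globin. It had 15563, 16548 and 21122 CPM in marrow, against 0 and 0.258 CPM in MSC. S100a9, a calcium-binding protein that neutrophils hold in bulk, had 9603, 9626 and 10892 CPM in marrow, against 0.0587 and 0.0645 CPM in MSC. In MSC the most counts and the highest level per length belonged to Lyz2, the lysozyme of macrophages and granulocytes, with 3264, 3479 and 3468 CPM in marrow, against 10886 and 9598 CPM in MSC. Its log2 fold change was -1.59 (SE 0.16, edgeR adjusted p = 0.00017), and the groups did not overlap.

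The promoters of these 3 genes are shown because they head the counts in each direction. Each runs from 250 bases before to 50 bases after the start that RefSeq annotates on GRCm38.p6, 5′ to 3′ on the strand of the gene, and all 3 genes lie on the minus strand. Capitals mark matches on either strand to the GATA site AGATAA, the CACCC box CCNCNCCC, the TATA box TATAAA, the core of PU.1 sites GAGGAA, the C/EBP site TTGCNNCAA, the AP-1 site TGANTCA, the TEAD site GGAATG or the CCAAT box. Matches may overlap each other.
Hbb-bs, chr7:103827879-103828178: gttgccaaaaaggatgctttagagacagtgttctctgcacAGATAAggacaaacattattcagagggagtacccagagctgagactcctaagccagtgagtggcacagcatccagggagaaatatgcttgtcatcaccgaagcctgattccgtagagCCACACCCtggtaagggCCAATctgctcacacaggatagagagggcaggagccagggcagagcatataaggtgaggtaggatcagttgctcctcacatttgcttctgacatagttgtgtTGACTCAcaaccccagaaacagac
S100a9, chr3:90695672-90695971: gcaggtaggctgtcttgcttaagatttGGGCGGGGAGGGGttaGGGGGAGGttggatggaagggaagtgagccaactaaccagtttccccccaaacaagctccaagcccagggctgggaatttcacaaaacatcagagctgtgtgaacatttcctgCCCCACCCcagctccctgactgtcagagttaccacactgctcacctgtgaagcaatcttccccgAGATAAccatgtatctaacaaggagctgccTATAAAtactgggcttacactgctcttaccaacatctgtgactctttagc
Lyz2, chr10:117282223-117282522: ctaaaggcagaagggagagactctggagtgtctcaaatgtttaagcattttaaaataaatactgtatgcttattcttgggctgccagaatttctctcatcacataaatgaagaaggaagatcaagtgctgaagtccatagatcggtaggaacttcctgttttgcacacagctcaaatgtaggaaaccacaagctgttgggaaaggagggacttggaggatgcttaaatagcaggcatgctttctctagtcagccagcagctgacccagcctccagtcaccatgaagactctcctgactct

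The Hbb-bs window held the GATA letters 210 bases and the CACCC letters 93 bases before the start, and CCAAT 76 bases before it. Its AP-1 letters began at base 27 counted from the start. In mice the red cell factor Klf1 is known to bind the CACCC box of beta-globin. The S100a9 window held the GATA letters 30 bases before the start and CCCCACCC 94 bases before it. CACCC letters also stood on the opposite strand 223, 218 and 207 bases before the start, and TATAAA began at the annotated start itself. No searched letters were in the Lyz2 window. Over 11256 promoters of tested genes, the GATA letters stood in 6.72%, in 10.3% of those of genes over 2-fold higher in marrow, and in 5.59% of those of genes over 2-fold lower. CCNCNCCC stood in 67.6% of all, 61.9% of the higher and 73.7% of the lower set, and CCAAT in 38.5%, 42.5% and 34.7% of these sets. For the others the shares of all, higher and lower sets were 7.48%, 9.33% and 8.30% for TATAAA, 27.2%, 30.4% and 28.0% for GAGGAA, 1.599%, 1.64% and 1.71% for TTGCNNCAA, 5.21%, 6.96% and 5.67% for TGANTCA, and 11.8%, 11.5% and 14.02% for GGAATG. A match is a string of letters and not a bound site.

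Red cell genes were higher in marrow across the lineage. Of 12 erythroid transcription factors and receptors, 12 were higher in marrow. Klf1, which switches on adult globin and many other red cell genes, had 119, 100.5 and 133 CPM in marrow and no count in MSC, at least 1266-fold higher. Gata1, the master factor of the lineage, had 108, 101 and 115 CPM in marrow and no count in MSC, at least 1169.8-fold higher. Neither was detected in MSC at this depth. Tfrc, the transferrin receptor that brings in iron, had 1928, 1343 and 2005 CPM in marrow, against 398 and 138 CPM in MSC, a log2 fold change of 2.71 (SE 0.47, edgeR adjusted p = 0.002). Lmo2 and Ldb1, adaptors that also serve other cell types, differed least, at 0.76 and 0.36. Without the first MSC library Tfrc stood at 3.66, and the call of Ldb1 was lost without the first or the third marrow library or the first MSC library, at 0.37, 0.34 and 0.29.

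Of 16 globin and heme synthesis genes, 15 were tested and 15 were higher in marrow, with a median log2 fold change of 4.59. Hba-a1 (7458, 6298 and 7815 CPM in marrow, against 0 and 0.194 CPM in MSC) and Alas2 (1722, 1458 and 1670.02 CPM, against 0 and 0.129 CPM), the first enzyme of heme synthesis in red cells, were close to absent from MSC. Enzymes of the pathway that all cells use to make heme were detected in both groups. Uros, such an enzyme, had 96.98, 88.9 and 110.2 CPM in marrow, against 11.7 and 11.7 CPM in MSC, a log2 fold change of 3.08.

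Of 18 red cell membrane genes, 17 were tested and 17 were higher in marrow, with a median of 9.77. Slc4a1, the band 3 anion exchanger, heads the genes taken by the naming rule. It had 5898, 4142 and 5399 CPM in marrow and no count in MSC, at least 55644-fold higher. Aqp1, a water channel that endothelium also makes, had 786, 689 and 831 CPM in marrow, against 20.6 and 6.84 CPM in MSC. Hemgn, a nuclear protein of red cell precursors, had 872, 703 and 889.7 CPM in marrow and no count in MSC.

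Neutrophil genes were as one-sided. All 11 members of the primary granule list were higher in marrow, with a median log2 fold change of 11.44, or 10.69 with genes absent from MSC set to their lower bound. Mpo, the myeloperoxidase of promyelocytes, had 1669, 1318 and 1474 CPM in marrow and no count in MSC, at least 16127-fold higher. Elane, the elastase, had 459, 361 and 426 CPM in marrow, against 0 and 0.0645 CPM in MSC. Srgn, the proteoglycan core of granules that macrophages and other cells also hold, had 371, 402 and 429 CPM in marrow, against 62.3 and 33.3 CPM in MSC, a log2 fold change of 3.07 (SE 0.28, edgeR adjusted p = 0.0001).

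Of 24 late neutrophil genes, 23 were higher in marrow and 1 was not called. Ngp, a secondary granule protein, had 8679.8, 7921 and 7812 CPM in marrow, against 0.117 and 0 CPM in MSC, 2 counts in all. Ltf, lactoferrin, had 5198, 4561 and 4528 CPM in marrow, against 0.0587 and 0.0645 CPM in MSC, 2 counts in all. Chil3, a chitinase-like protein of myeloid cells, had 3279, 2972 and 3388 CPM in marrow and no count in MSC, at least 34747-fold higher. Retnlg, a resistin-like protein of neutrophils, had 956, 782 and 846 CPM in marrow and no count in MSC. Itgam and Cybb, which macrophages also express, had the smallest fold changes of the list. Itgam, the Cd11b integrin chain, had 245, 228 and 220.2 CPM in marrow, against 225 and 135 CPM in MSC, and the groups overlapped (log2 fold change 0.36, edgeR adjusted p = 0.17). Cybb, the oxidase subunit of phagocytes, had 1428, 1334 and 1192 CPM in marrow, against 695 and 485 CPM in MSC. Mmp9, a gelatinase, had 843, 713 and 677 CPM in marrow, against 40.96 and 5.68 CPM in MSC, and so differed between the MSC libraries. Without the first MSC library Itgam was called higher in marrow, at 0.76.

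Eosinophil, basophil and mast cell genes were one-sided too, with 14 of 14 higher and a median of 11.69, or 9.18 with bounds. Prg2, the major basic protein of eosinophil granules, had 661, 832 and 652 CPM in marrow and no count in MSC, at least 7793-fold higher. Hdc, which makes histamine, had 162, 119 and 158 CPM in marrow, against 0.176 and 0.0645 CPM in MSC. Gata2, a factor of mast cells and stem cells that endothelium also uses, had the smallest difference of the list, with 22.5, 28.4 and 19.4 CPM in marrow, against 3.76 and 11.1 CPM in MSC.

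Of 22 B cell genes, 20 were higher in marrow and 1 was lower, or 2 without the second marrow library or with no filter on low counts. Pax5, the B lineage factor, had 126, 190.2 and 93.8 CPM in marrow and no count in MSC, at least 1505-fold higher. Igkc, the kappa light chain constant region, had 316, 357 and 352 CPM in marrow and no count in MSC. Rag1, which cuts antigen receptor genes, had 59.1, 107 and 39.8 CPM in marrow and no count in MSC. The second marrow library was the highest of the 3 in all of these. Ebf1 ran against its list. This factor specifies B cells and is also made by marrow stroma and fat cell precursors, and it had 61.9, 102 and 50.4 CPM in marrow, against 177 and 186 CPM in MSC, a log2 fold change of -1.34 (SE 0.28, edgeR adjusted p = 0.0042). Ighm, the mu heavy chain, had 592, 866 and 459 CPM in marrow, against 8.92 and 29.7 CPM in MSC.

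T and NK cell genes were low in marrow and near absent from MSC, and 22 of 22 were called higher in marrow. Genes so low in MSC pass the filter through marrow alone, so this count was close to fixed by the filter. Nkg7, a granule membrane protein of cytotoxic cells, had 32.7, 31.96 and 29.1 CPM in marrow and no count in MSC, at least 340.1-fold higher. Cd3d, a chain of the T cell receptor complex, had 14.3, 1.98 and 12.2 CPM in marrow and no count in MSC, and the second marrow library held less than the others. The list summed to 128, 126 and 115 CPM in marrow, against 2.99 and 4.78 CPM in MSC.

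Megakaryocyte and platelet genes were higher in marrow for 13 of the 16 tested. Ppbp, the platelet basic protein, had 435, 1052 and 988 CPM in marrow, against 0.117 and 0.0645 CPM in MSC. Gp6, the collagen receptor of platelets, had 36.8, 86.4 and 77.8 CPM in marrow and no count in MSC, at least 722-fold higher. The first marrow library was the lowest of the 3 in each. Thbs1, thrombospondin, went the other way. Platelets store it and fibroblasts secrete it, and it had 552, 706 and 786 CPM in marrow, against 7890.02 and 8366 CPM in MSC, a log2 fold change of -3.58 (SE 0.20, edgeR adjusted p = 1.3e-05).

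Stem and progenitor genes were split, with 10 higher, 5 lower and 5 not called of 20. Myb, needed by dividing progenitors, had 234, 262 and 220.03 CPM in marrow and no count in MSC, at least 2599-fold higher. Flt3, a receptor of early lymphoid and myeloid progenitors, had 36.02, 33.01 and 28.95 CPM in marrow and no count in MSC. Runx1, a factor of blood stem cells and of macrophages, had 96.98, 106 and 88.9 CPM in marrow, against 185 and 186 CPM in MSC, a log2 fold change of -0.93 (SE 0.11, edgeR adjusted p = 0.00038). Procr, a marker of stem cells that endothelium also carries, had 0.313, 0.989 and 0.864 CPM in marrow, against 14.8 and 53.7 CPM in MSC. Kit, the stem cell factor receptor, had 104, 107 and 94.4 CPM in marrow, against 21.6 and 71.6 CPM in MSC, and was not called (log2 fold change 1.13, edgeR adjusted p = 0.056). The MSC libraries differed from each other in Kit as they did in Procr. It was called higher without either of them, at 0.49 without the first and 2.23 without the second.

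Genes that white blood cells share were far less one-sided. Of 24 pan-leukocyte genes, 15 were higher in marrow, 3 were lower and 6 were not called, with a median of 0.71. Spn, the mucin Cd43, had 350.4, 330.3 and 320.1 CPM in marrow, against 12.9 and 14.1 CPM in MSC, a log2 fold change of 4.63. Rac2, the GTPase of blood cells, had 605, 567 and 521 CPM in marrow, against 103 and 76.4 CPM in MSC, a log2 fold change of 2.65 (SE 0.18, edgeR adjusted p = 2.7e-05). Lcp1, an actin bundler of white blood cells, had 1652, 1431 and 1404 CPM in marrow, against 1842 and 1353 CPM in MSC, and the groups overlapped. Laptm5, a lysosomal membrane protein of the same cells, was higher in MSC, with 392, 375 and 334 CPM in marrow, against 756 and 689.97 CPM in MSC, a log2 fold change of -0.98 (SE 0.13, edgeR adjusted p = 0.00058).

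Most macrophage genes were higher in MSC. Of 23 monocyte and macrophage genes, 5 were higher in marrow and 15 were lower, with a median of -2.70. Csf1r had 128, 133 and 114 CPM in marrow, against 1929 and 1385 CPM in MSC, a log2 fold change of -3.73 (SE 0.19, edgeR adjusted p = 8.5e-06). Adgre1, the F4/80 antigen of mouse macrophages, had 37.5, 47.4 and 46.7 CPM in marrow, against 1147 and 925 CPM in MSC, a log2 fold change of -4.56. Mrc1, the mannose receptor, had 131, 194 and 206 CPM in marrow, against 2199 and 1723 CPM in MSC. Both MSC libraries were above the 3 of marrow in each.

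Trem2, a lipid receptor of tissue macrophages, had 4.63, 4.39 and 5.19 CPM in marrow, against 245 and 214 CPM in MSC, a log2 fold change of -5.60 (SE 0.14, edgeR adjusted p = 3.1e-06). Fcrls, an Fc receptor-like protein of mouse macrophages and microglia, had 0.188, 0.124 and 0.144 CPM in marrow, against 463 and 585 CPM in MSC, a log2 fold change of -11.68. Apoe, the lipid carrier that macrophages secrete, had 116, 163 and 163 CPM in marrow, against 5327 and 4838 CPM in MSC, a log2 fold change of -5.11. Ctsb, a lysosomal protease, and Fth1, the ferritin heavy chain, were also among the 10 genes with the most counts in MSC, with log2 fold changes of -2.86 and -2.66.

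The monocyte genes Ly6c2 and Ccr2 went the other way. Ly6c2, the Ly6C antigen of blood monocytes, had 482, 423 and 469 CPM in marrow and no count in MSC, at least 4959.5-fold higher. Ccr2, the receptor that draws monocytes out of marrow, had 383, 254 and 325 CPM in marrow, against 0.998 and 0.7099 CPM in MSC, a log2 fold change of 8.53 (SE 0.31, edgeR adjusted p = 4.0e-06). Cd163, a hemoglobin scavenger receptor, and Cd5l, made by macrophages of spleen and liver, were higher in marrow at 1.96 and 6.99. Spi1, the PU.1 factor of the whole myeloid lineage, had 153, 138 and 142 CPM in marrow, against 142 and 109 CPM in MSC, and was not called. Without the first MSC library it was called higher in marrow, at 0.39.

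MHC class II genes, which present antigen, were higher in marrow for 9 of 10, with a median of 1.83. Cd74, the invariant chain, had 179.9, 201 and 165 CPM in marrow, against 92.1 and 63.4 CPM in MSC, a log2 fold change of 1.23 (SE 0.19, edgeR adjusted p = 0.0011). Of the 11 dendritic cell genes tested, 8 were higher and 2 were lower. Siglech, of plasmacytoid dendritic cells, had 30.8, 46.2 and 28.2 CPM in marrow and no count in MSC. Of the 10 osteoclast genes, 6 passed the filter, and 4 of the genes that define the mature cell, Calcr, Ocstamp, Dcstamp and Oscar, did not. Of the 6, 2 were higher in marrow, 3 were lower and 1 was not called, and the list summed to 979.9, 853 and 808 CPM in marrow, against 458 and 352 CPM in MSC. The 2 that were higher were Mmp9, given above, and Acp5, an acid phosphatase, with 53.1, 54.6 and 54.2 CPM in marrow, against 29.7 and 11.9 CPM in MSC. Ctsk, the cathepsin that osteoclasts and some fibroblasts secrete, had 4.31, 5.26 and 5.47 CPM in marrow, against 221 and 209 CPM in MSC, a log2 fold change of -5.42 (SE 0.14, edgeR adjusted p = 3.1e-06). Atp6v0d2, a proton pump subunit, and the receptor Tnfrsf11a were lower too, at -1.33 and -4.27. The call of Atp6v0d2 was lost without the third marrow library, at -1.35, or without the first MSC library, at -1.25. Acp5 stood at 1.37 with all 5 libraries and at 2.16 without the first MSC library.

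**Figure D3:**
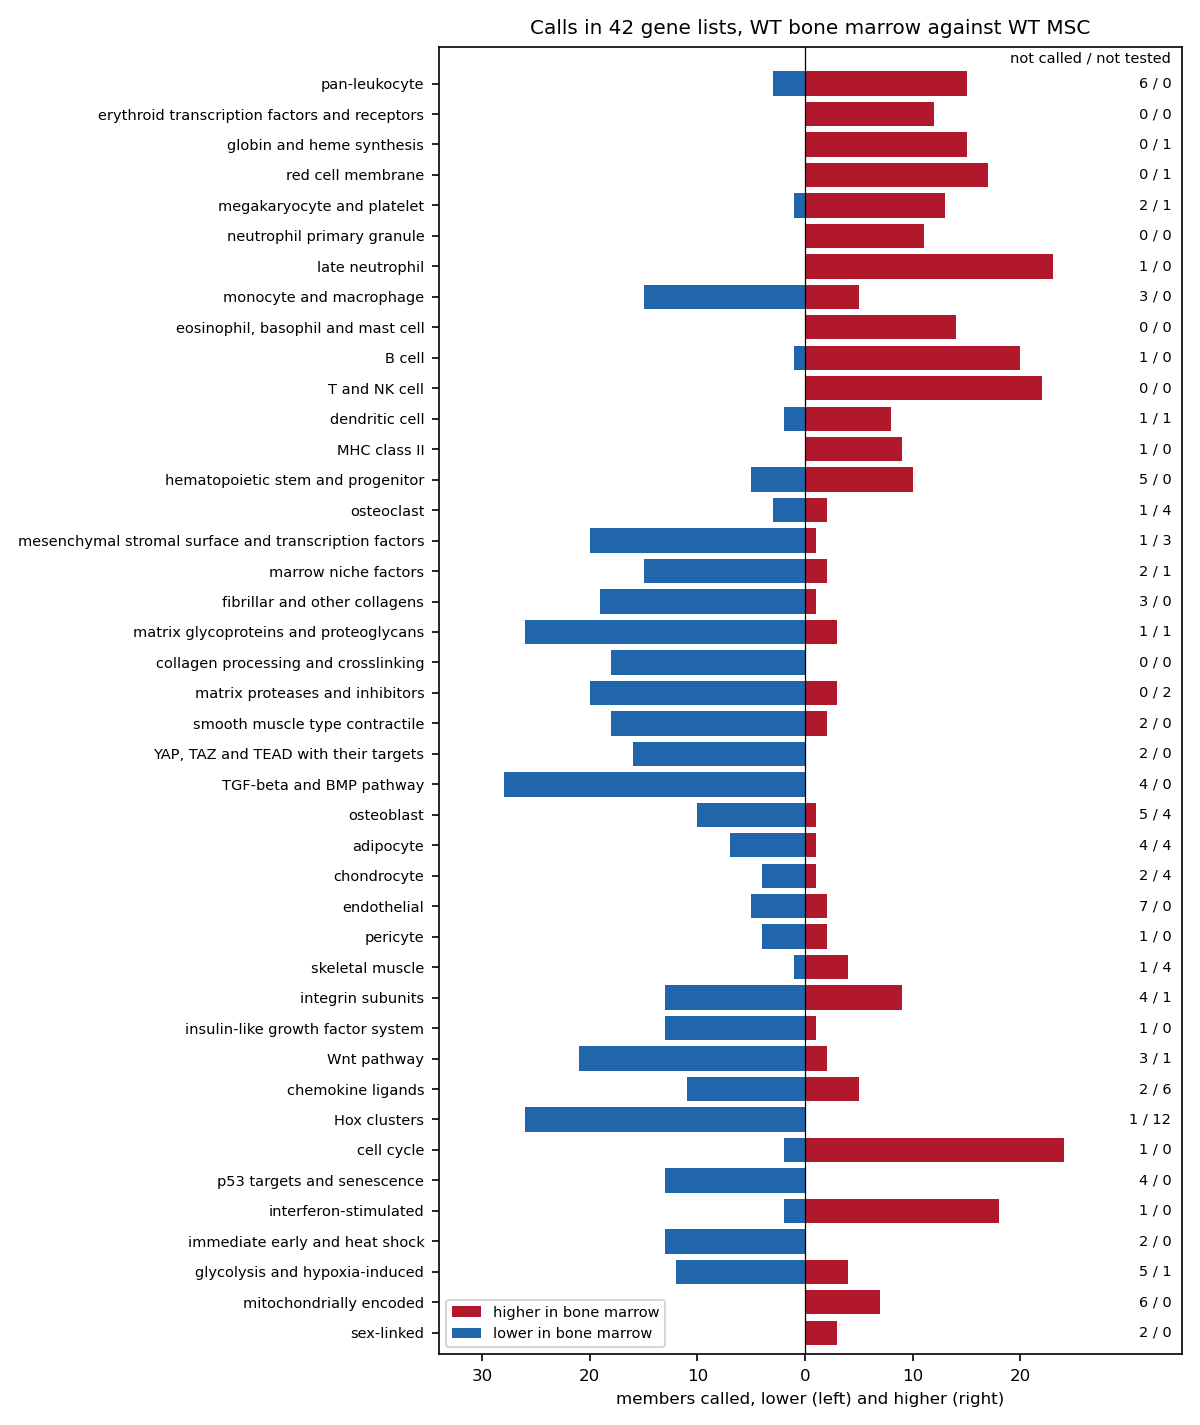
Members of 42 gene lists called higher in marrow (right of 0), called lower (left of 0), and tested without a call or not tested (numbers at the right edge, as not called / not tested), by edgeR's quasi-likelihood test. Red cell, granulocyte, B cell and T cell lists lie nearly all on the right, the monocyte and macrophage list mostly on the left, and matrix, signalling and Hox lists nearly all on the left.

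Collagen genes were lower in marrow for 19 of 23, with a median of -5.23. Col1a2, a chain of type I collagen, had 36.3, 129 and 50.6 CPM in marrow, against 3447 and 2147 CPM in MSC, a log2 fold change of -5.28 (SE 0.58, edgeR adjusted p = 0.00022). Col3a1, of type III collagen, had 2.81, 9.397 and 7.202 CPM in marrow, against 1553 and 1263 CPM in MSC, a log2 fold change of -7.76. Col2a1, the collagen of cartilage, had 0.188, 1.05 and 0.144 CPM in marrow, against 932 and 341 CPM in MSC, a log2 fold change of -10.36. The second marrow library was the highest of marrow in all 3, and without it Col1a2 stood at -6.00 and Col2a1 at -11.82. Without the first MSC library Col2a1 stood at -9.48. Col14a1, which coats collagen fibrils, was the 1 member higher in marrow, with 27.95, 34.003 and 41.1 CPM in marrow, against 1.76 and 1.55 CPM in MSC, a log2 fold change of 4.37 (SE 0.25, edgeR adjusted p = 1.4e-05).

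The enzymes that finish collagen were lower in marrow for 18 of 18, with a median of -4.99. Lox, which crosslinks collagen and elastin, had 3.001, 12.2 and 7.71 CPM in marrow, against 3638 and 2925 CPM in MSC, a log2 fold change of -8.75 (SE 0.57, edgeR adjusted p = 2.3e-05). Serpinh1, the chaperone of newly made collagen, had 3.69, 17.8 and 13.7 CPM in marrow, against 615 and 894 CPM in MSC, a log2 fold change of -6.01. The smallest difference in the list was that of Plod3, a lysyl hydroxylase, at -1.97.

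Matrix glycoproteins and proteoglycans were lower in marrow for 26 of the 30 tested and higher for 3. Fn1, fibronectin, was second in counts in MSC, with 965, 584 and 739 CPM in marrow, against 9189.7 and 10208 CPM in MSC, a log2 fold change of -3.67 (SE 0.25, edgeR adjusted p = 2.5e-05). Fmod, fibromodulin, had 0, 0.124 and 0.3601 CPM in marrow, against 947 and 847 CPM in MSC, a log2 fold change of -12.45. Mfap5, a protein of elastic microfibrils, had 1 count over the marrow libraries and 92.3 and 147 CPM in MSC. Among the 3 members higher in marrow were the small leucine-rich proteoglycans Dcn and Lum. Dcn, decorin, had 2.19, 8.96 and 6.77 CPM in marrow, against 1.47 and 1.81 CPM in MSC, a log2 fold change of 1.86 (SE 0.60, edgeR adjusted p = 0.028). Lum, lumican, had 0.938, 3.89 and 2.09 CPM in marrow and no count in MSC, at least 25.2-fold higher, or 15.97-fold without the second marrow library. Prelp, a further member of that family, had 3.13, 7.17 and 8.43 CPM in marrow, against 959.9 and 1116 CPM in MSC. The call of Dcn was lost without the second or the third marrow library, at 1.45 and 1.78. It was also lost without the first or second of MSC, at 1.70 and 2.01. In these 4 of 5 cases Lum was the 1 member of the list still called higher, so the third member lost its call too. Fmod stood at -11.85 without the first marrow library and -13.64 without the third.

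Proteases that cut matrix and their inhibitors were lower in marrow for 20 of the 23 tested, and the 3 that were higher were Mmp8, Mmp9 and Mmp25, proteases of neutrophils. Mmp13, a collagenase of stroma and bone cells, had 18.6, 39.01 and 43.1 CPM in marrow, against 1109 and 2161 CPM in MSC, a log2 fold change of -5.61 (SE 0.45, edgeR adjusted p = 5.6e-05). Mmp12, the elastase of macrophages, had 0, 1.11 and 0.432 CPM in marrow, against 179 and 172 CPM in MSC. Timp2, an inhibitor of these enzymes, had 47.9, 61.9 and 45.4 CPM in marrow, against 1401 and 1555 CPM in MSC. Pappa2, a protease that frees insulin-like growth factors, had no count in marrow and 297 and 489.6 CPM in MSC, at least 5967-fold lower in marrow, the first gene of its direction under the naming rule.

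Contractile and cytoskeletal genes of smooth muscle type were lower in marrow for 18 of 22 at a smaller median of -2.18. Acta2, smooth muscle actin, had 4.88, 6.31 and 4.03 CPM in marrow, against 1683 and 2842 CPM in MSC, a log2 fold change of -8.79 (SE 0.34, edgeR adjusted p = 4.3e-06). Cnn1, calponin, had 0.125, 0.6801 and 0.144 CPM in marrow, against 94.4 and 112 CPM in MSC. Cytoskeletal genes that blood cells also use differed less. Flna, filamin, had 2310.3, 2248 and 2240.2 CPM in marrow, against 2702 and 3689.7 CPM in MSC (log2 fold change -0.50, edgeR adjusted p = 0.042). Myh9, the heavy chain of nonmuscle myosin, had 1750.04, 1721 and 1784 CPM in marrow, against 1528 and 2021 CPM in MSC, and was not called. Actb and Eef1a1, genes that most cells use at a high level, were not called, at 0.07 and -0.23. The call of Flna was lost without any 1 marrow library, at -0.50, -0.48 and -0.48, and without the second MSC library, at -0.26.

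Hippo pathway effectors and their targets were lower in marrow for 16 of 18, with a median of -5.20. Yap1, the coactivator, had 1.88, 3.03 and 3.31 CPM in marrow, against 99.99 and 147 CPM in MSC, a log2 fold change of -5.50 (SE 0.27, edgeR adjusted p = 8.3e-06). Its DNA-binding partner Tead1 had 1.38, 2.66 and 2.305 CPM in marrow, against 211 and 213 CPM in MSC. Most targets were also lower. Ccn2, a secreted matrix-cell protein, had 4.69, 3.96 and 9.29 CPM in marrow, against 1339 and 2487 CPM in MSC, a log2 fold change of -8.33. Ankrd1 had no count in marrow and 54.1 and 185 CPM in MSC, at least 1787-fold lower in marrow. That limit was 2839-fold without the first MSC library and 831-fold without the second. Axl, a receptor that macrophages carry too, had 101, 146 and 139.7 CPM in marrow, against 135 and 148 CPM in MSC, and was not called.

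Of 32 genes of the TGF-beta and BMP pathway, 28 were lower in marrow and none was higher. Among ligands, Tgfb1, the form made by blood cells, had 199.7, 226 and 206 CPM in marrow, against 184 and 185 CPM in MSC (log2 fold change 0.19, edgeR adjusted p = 0.17), while Tgfb3 had 0.188, 1.98 and 1.37 CPM in marrow, against 162 and 322 CPM in MSC. Among receptors, Tgfbr2 had 55.7, 78.6 and 52.3 CPM in marrow, against 805 and 860.02 CPM in MSC, a log2 fold change of -3.74. Among antagonists, Fst, follistatin, had 1.94, 3.89 and 4.03 CPM in marrow, against 309 and 394 CPM in MSC, and Grem1 had 8.38, 21.1 and 21.1 CPM, against 480.2 and 253 CPM. The 4 members that were not called were Tgfb1, the receptor Acvrl1, and the targets Id2 and Tgfbi. Acvrl1 was called lower without the first MSC library, at -0.88, and Id2 without the second, at -0.95.

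The Wnt list showed 21 of the 26 tested lower in marrow and 2 higher. Sfrp1, a secreted Wnt inhibitor, had 1.75, 5.01 and 4.898 CPM in marrow, against 1182 and 1191 CPM in MSC, a log2 fold change of -8.26 (SE 0.42, edgeR adjusted p = 8.9e-06). Rspo2, which boosts Wnt signals, had 0.438, 1.55 and 1.37 CPM in marrow, against 493 and 312 CPM in MSC. The 2 that were higher were Lef1 and Tcf7, factors that lymphocytes use. Lef1 had 10.4, 15.5 and 6.48 CPM in marrow, against 0 and 0.0645 CPM in MSC. Axin2, a target of the pathway, had 1.81, 1.98 and 1.51 CPM in marrow, against 0.822 and 1.61 CPM in MSC, and was not called (log2 fold change 0.55, edgeR adjusted p = 0.26).

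Of 15 genes of the insulin-like growth factor system, 13 were lower in marrow. Igf1, the growth factor, had 14.01, 30.9 and 25.4 CPM in marrow, against 841 and 428 CPM in MSC, a log2 fold change of -4.76 (SE 0.41, edgeR adjusted p = 7.5e-05). Igfbp4, a binding protein, had 126, 179.8 and 175 CPM in marrow, against 2400.3 and 2971 CPM in MSC. Insr, the insulin receptor, was the 1 member higher in marrow, at 0.44.

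Hox genes, which record position along the body, were lower in marrow for 26 of the 27 tested, with a median of -4.04, and 12 more were too low to test. Hoxc10 had 0.0625, 0.371 and 0.288 CPM in marrow, against 19.8 and 19.5 CPM in MSC, a log2 fold change of -6.31 (SE 0.40, edgeR adjusted p = 1.9e-05). Hoxa10 had 1.06, 1.48 and 1.801 CPM in marrow, against 19.2 and 28.01 CPM in MSC. Hoxa9, which blood progenitors use, had 5.63, 4.45 and 4.97 CPM in marrow, against 10.03 and 10.3 CPM in MSC, a smaller difference of -1.01. In the D cluster Hoxd8 had 0.125, 0.247 and 0.648 CPM in marrow, against 9.33 and 21.5 CPM in MSC, while Hoxd11, Hoxd12 and Hoxd13 had no count in any of the 5 libraries.

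Among markers of stromal cells, 20 of the 22 tested were lower in marrow. Prrx1, a factor of limb mesenchyme, had 2.38, 4.45 and 3.67 CPM in marrow, against 238 and 271 CPM in MSC, a log2 fold change of -6.18 (SE 0.24, edgeR adjusted p = 4.3e-06). Pdgfra had 4.38, 15.3 and 14.4 CPM in marrow, against 120.0 and 137 CPM in MSC, a log2 fold change of -3.50. Surface antigens in common use for such cells were uneven. Nt5e, Cd73, had 11.4, 13.1 and 13.1 CPM in marrow, against 17.4 and 22.5 CPM in MSC. Thy1, Cd90, had 3.56, 4.82 and 2.09 CPM in marrow, against 8.802 and 48.98 CPM in MSC. Cd44 had 493, 449 and 435 CPM in marrow, against 416 and 349 CPM in MSC, and was not called (log2 fold change 0.26, edgeR adjusted p = 0.13). Without the second MSC library the call of Nt5e was lost, at -0.47, and Thy1 stood at -1.33, against -3.03 with all 5 libraries.

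Of 16 osteoblast genes tested, 10 were lower in marrow and 1, Ibsp, was higher, or 2 without the first marrow library. Sp7, the osteoblast factor, had 0.375, 1.92 and 0.648 CPM in marrow, against 83.2 and 80.7 CPM in MSC, a log2 fold change of -6.35, and Alpl, alkaline phosphatase, had 2.75, 7.05 and 2.16 CPM, against 370.5 and 356 CPM. Tnfrsf11b, osteoprotegerin, which holds back osteoclasts, had no count in marrow and 314 and 357 CPM in MSC, at least 5129-fold lower in marrow. Late osteoblast and osteocyte genes stayed low, with Bglap at no more than 1.55 CPM in any library and Sost with no count. The call of Ibsp was lost without the second or the third marrow library, at 0.93 and 1.34, and without the first or second of MSC, at 1.48 and 1.25. Sp7 stood at -7.31 without the second marrow library.

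Of 12 adipocyte genes tested, 7 were lower in marrow and 1 was higher, or 2 without the first MSC library. Lpl, lipoprotein lipase, had 29.3, 72.03 and 52.3 CPM in marrow, against 625 and 771 CPM in MSC, a log2 fold change of -3.77 (SE 0.35, edgeR adjusted p = 0.00011). Adipoq, adiponectin, had 5.32, 21.7 and 14.6 CPM in marrow, against 8.33 and 15.2 CPM in MSC, and the groups overlapped. Of the cartilage genes, Sox9, the cartilage factor, had 0, 0 and 0.144 CPM in marrow, against 28.6 and 30.8 CPM in MSC, and Col10a1 had 0.375, 0.309 and 0.07202 CPM, against 45.5 and 78.1 CPM. Acan, aggrecan, did not pass the filter and had at most 0.176 CPM. Sox6, which also serves red cell maturation, was the 1 cartilage gene called higher in marrow with all 5 libraries, and 2 were called higher without the first MSC library. It had 340.2, 252 and 304 CPM in marrow, against 0.704 and 0.194 CPM in MSC.

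Factors that the marrow stroma supplies to blood cells were lower in marrow for 15 of the 19 tested. Cxcl12, the chemokine that holds stem cells and B cell precursors in place, had 296, 873 and 699.9 CPM in marrow, against 4859 and 8486 CPM in MSC, a log2 fold change of -3.42 (SE 0.47, edgeR adjusted p = 0.00067). Kitl, the stem cell factor, had 19.5, 60.6 and 43.9 CPM in marrow, against 700.4 and 636 CPM in MSC, a log2 fold change of -4.01. Csf1, the macrophage growth factor, had 17.8, 21.9 and 18.3 CPM in marrow, against 787 and 827 CPM in MSC, a log2 fold change of -5.38 (SE 0.15, edgeR adjusted p = 3.1e-06). Its receptor Csf1r is given above and was also higher in MSC.

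A pair of niche genes was higher in marrow. Lepr, the leptin receptor, by which reticular stroma of mouse marrow is recognised, had 25.95, 75.6 and 60.4 CPM in marrow, against 2.52 and 2.13 CPM in MSC, a log2 fold change of 4.53 (SE 0.53, edgeR adjusted p = 0.00031). Vcam1, an adhesion molecule of stroma, endothelium and marrow macrophages, had 348, 517 and 522 CPM in marrow, against 83.5 and 118 CPM in MSC, a log2 fold change of 2.20 (SE 0.25, edgeR adjusted p = 0.00028). The first marrow library was the lowest of marrow in Lepr, Cxcl12 and Kitl alike. Angpt1 had 38.6, 79.1 and 74.8 CPM in marrow, against 77.9 and 74.1 CPM in MSC, and was not called.

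Ligands and their receptors were set side by side in 19 pairs, with levels per transcript length in TPM. Jag1 and Csf1r each stand in 2 pairs, which leaves 18 ligands and 18 receptors. Of the 18 ligands, 2 were higher in marrow, 12 were lower, 2 were not called and 2 were not tested. Of the 18 receptors, 6 were higher, 6 were lower and 6 were not called. The receptors were thus near the shares of all genes, 36.4% higher and 34.7% lower. The counts of pairs below were not tested against pairs of other genes. In 7 pairs both partners were lower in marrow, among them Csf1 and Csf1r, Pdgfa and Pdgfra, Pdgfb and Pdgfrb, and Lif and Lifr. Csf1 averaged 10.6 TPM in marrow and 572 TPM in MSC, and Csf1r averaged 62.9 TPM in marrow and 1076 TPM in MSC. In 2 pairs the ligand was lower and the receptor higher. Il7, the growth factor of B cell precursors, averaged 0.52 TPM in marrow and 9.14 TPM in MSC, and its receptor chain Il7r averaged 29.9 TPM in marrow and 4.46 TPM in MSC. Cxcl12 averaged 219.6 TPM in marrow and 3043 TPM in MSC, and its receptor Cxcr4 averaged 387 TPM in marrow and 352 TPM in MSC, a log2 fold change in CPM of 0.51 (SE 0.17, edgeR adjusted p = 0.035). The call of Cxcr4 was lost without the first or second marrow library, at 0.48 and 0.47, and without the second MSC library, at 0.29.

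**Figure D4:**
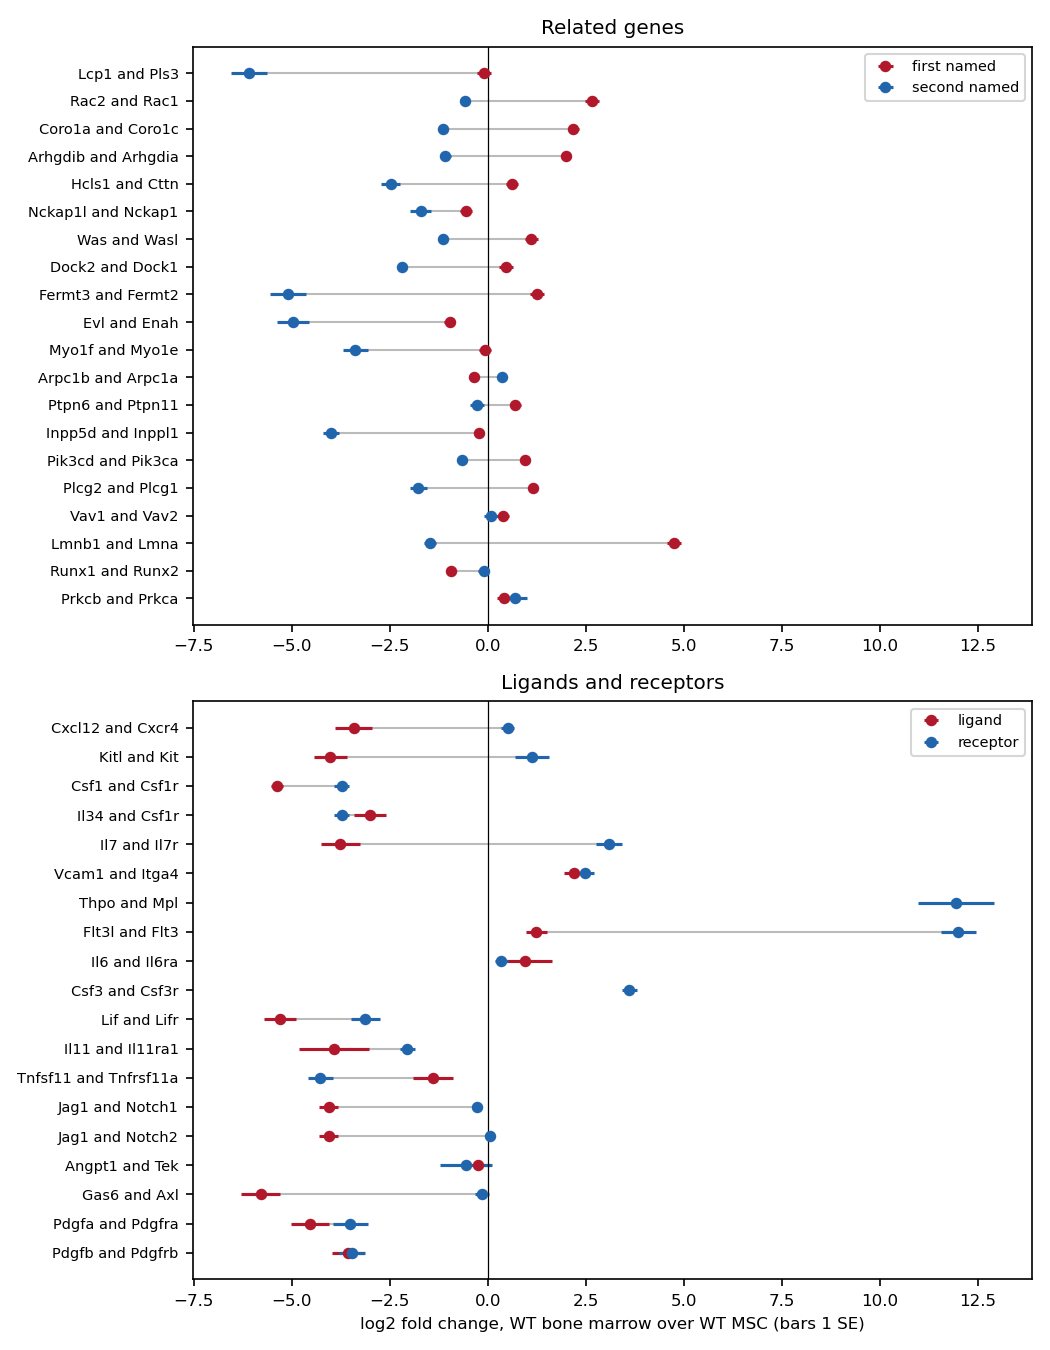
Log2 fold change (marrow over MSC, horizontal axis) of both members of 20 pairs of related genes (upper panel) and of 19 ligand-receptor pairs (lower panel). Bars are 1 SE, and a partner without a marker was too low to test. The gene named first lies right of its partner in 17 of 20 pairs, and the ligands lie mostly left of 0.

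Pairs of related genes, mostly cytoskeletal and signalling genes of which blood cells mainly use the one named first and other tissues the other, were also compared. The lamins Lmnb1 and Lmna and the factors Runx1 and Runx2 are not split in that way, since most cells use Lmnb1 and Runx2 is a factor of osteoblasts. Of the 20 genes named first, 10 were higher in marrow, 4 were lower and 6 were not called, and of the 20 partners 1 was higher, 15 were lower and 4 were not called. In 17 pairs the fold change of the first gene was the larger. Without the lamin and Runx pairs, a choice made after the values were seen, 9 of 18 first genes were higher and 3 lower, 1 of 18 partners was higher and 14 lower, and the first fold change was the larger in 16 pairs. Fermt3 and Fermt2, kindlins that activate integrins, differed in opposite directions. Fermt3 had 270.4, 319 and 312 CPM in marrow, against 146 and 106 CPM in MSC, and Fermt2 had 2.06, 5.502 and 7.06 CPM in marrow, against 122 and 209 CPM in MSC. For the plastins, Lcp1 was not called, as given above, while Pls3 had 1.69, 5.502 and 3.89 CPM in marrow, against 177 and 323 CPM in MSC, a log2 fold change of -6.08 (SE 0.46, edgeR adjusted p = 4.1e-05). For the lamins of the nuclear envelope, Lmnb1 had 381, 302 and 332 CPM in marrow, against 13.5 and 11.6 CPM in MSC, and Lmna had 93.5, 94.3 and 114 CPM in marrow, against 248 and 314 CPM in MSC. Among the genes named first, Nckap1l, Evl, Arpc1b and Runx1 were lower in marrow. Of these, the call of Arpc1b was lost without any 1 library other than the second of MSC, at -0.40, -0.29, -0.34 and -0.26, and that of Nckap1l without the third marrow library, at -0.49.

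Integrin subunits differed in both directions, with 9 of the 26 tested higher in marrow and 13 lower. The share higher, 34.6%, is near the 36.4% of all genes, and the share lower is above the 34.7% of all genes. Itgb2l had 284, 256 and 256 CPM in marrow and no count in MSC. Itga2b, of platelets, had 121, 250.2 and 214 CPM in marrow, against 0.998 and 0.839 CPM in MSC. Itgb1, the beta chain of most matrix receptors, had 325, 421 and 442 CPM in marrow, against 1410.2 and 1686 CPM in MSC, a log2 fold change of -1.97. Itgb5, of vitronectin receptors, had 22.6, 40.1 and 30.4 CPM in marrow, against 469 and 537 CPM in MSC.

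Of 24 chemokine ligand genes, 18 were tested, 5 were higher in marrow and 11 were lower. Ccl2 and Ccl7, which draw monocytes, were nearly absent from marrow. Ccl7 had 0.188, 0 and 0 CPM in marrow, against 26.1 and 8.91 CPM in MSC, and Ccl2 had 0.125, 0.433 and 0.216 CPM, against 25.6 and 16.2 CPM. Cxcl16, a membrane-bound chemokine of macrophages, had 1.19, 1.92 and 1.37 CPM in marrow, against 93.8 and 84.9 CPM in MSC, a log2 fold change of -5.89 (SE 0.20, edgeR adjusted p = 3.7e-06). Ccl6 had 112, 142 and 110.5 CPM in marrow, against 56.5 and 21.4 CPM in MSC.

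Endothelial genes differed between the MSC libraries. The list of 14 summed to 137, 273 and 239.6 CPM in marrow, against 315 and 1702 CPM in MSC. Pecam1, Cd31, had 72.7, 103 and 80.5 CPM in marrow, against 99.3 and 539 CPM in MSC, and the groups overlapped. Cdh5, the cadherin of endothelial junctions, had 7.82, 20.6 and 21.8 CPM in marrow, against 85.5 and 489.8 CPM in MSC. Of the list, 2 genes were higher in marrow, 5 were lower (35.7%, near the 34.7% of all genes) and 7 were not called. With 1 library left out, the count called lower was 9 without the first MSC library, 2 without the second, 3 without the first or second marrow library and 2 without the third. It was 9 with no filter on low counts or with the replicate number as a block, 8 with all 16 libraries and 2 by limma-voom. The count called higher was 1 without the third marrow library or the second of MSC. The call of Pecam1, at -1.90 with all 5 libraries, was lost without the second MSC library, at -0.22, and without any 1 marrow library, at -1.79, -2.05 and -1.85. Cdh5 was at -2.36 without the second MSC library, against -4.10 with all 5. Stab2, of sinusoidal endothelium, had 18.01, 39.6 and 38.8 CPM in marrow, against 0.411 and 0.387 CPM in MSC, a log2 fold change of 6.30 (SE 0.53, edgeR adjusted p = 6.7e-05). Edn1, endothelin, which endothelium and other cells make, had no count in marrow and 41.5 and 139.9 CPM in MSC. The part of endothelial RNA in other differences between the MSC libraries was not tested.

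Skeletal muscle genes were low and uneven in marrow, with 4 of the 6 tested called higher and 1 lower. Myh4, a fast myosin, had 4.13, 0.989 and 16.6 CPM in marrow and no count in MSC. Of 7 pericyte genes, 2 were higher in marrow and 4 were lower. Abcc9 had 8.07, 24.4 and 30.3 CPM in marrow, against 2.05 and 1.29 CPM in MSC, and Cspg4, the NG2 proteoglycan, had 0.0625, 0.371 and 0.07202 CPM in marrow, against 21.8 and 10.5 CPM in MSC.

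Cell cycle genes were higher in marrow for 24 of 27, with a median of 3.74. Mki67, the proliferation antigen, was among the 10 genes with the most counts in marrow, with 6008, 4986 and 5846 CPM in marrow, against 99.4 and 33.9 CPM in MSC, a log2 fold change of 6.40 (SE 0.55, edgeR adjusted p = 7.6e-05). Ccnb1, the mitotic cyclin, had 277, 254 and 301 CPM in marrow, against 10.8 and 7.16 CPM in MSC. Mcm5, of the replication helicase, had 360.4, 311 and 364 CPM in marrow, against 18.95 and 16.4 CPM in MSC, a log2 fold change of 4.29. The 2 that were lower were cyclins of G1. Ccnd1 had 4.502, 7.67 and 2.88 CPM in marrow, against 721 and 1001 CPM in MSC, a log2 fold change of -7.41 (SE 0.40, edgeR adjusted p = 1.1e-05), and Ccnd2 had 99.2, 109.9 and 108 CPM, against 901 and 1188 CPM. Ccnd3, the other cyclin D, was higher, with 352, 319 and 326 CPM in marrow, against 52.3 and 66.3 CPM in MSC. Mki67 stood at 7.36 without the first MSC library.

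Of 17 genes of a list of p53 targets and senescence genes, brakes of the cell cycle among them, 13 were lower in marrow and none was higher. Cdkn2a, which encodes p16 and p19, had no count in marrow and 39.7 and 56.5 CPM in MSC, at least 732-fold lower in marrow. Cdkn2b, the neighbouring inhibitor p15, had no count in marrow and 73.4 and 79.1 CPM in MSC, at least 1168-fold lower. Cdkn1a, p21, had 7.69, 7.295 and 6.05 CPM in marrow, against 299 and 343 CPM in MSC, a log2 fold change of -5.51 (SE 0.15, edgeR adjusted p = 3.1e-06). Mdm2, the p53 target that degrades p53, differed by only -0.64. Il6, a cytokine of senescent cells, had 1.0005, 1.05 and 0.792 CPM in marrow, against 0.822 and 0.129 CPM in MSC, and was not called. Without the first MSC library Il6 was called higher in marrow, at 2.79.

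Interferon-stimulated genes were higher in marrow for 18 of 21, with a median of 1.92. Rsad2, viperin, had 1010.1, 1047 and 896 CPM in marrow, against 0.411 and 0.387 CPM in MSC, a log2 fold change of 11.24 (SE 0.24, edgeR adjusted p = 2.7e-06). Isg15, a ubiquitin-like protein, had 75.04, 65.4 and 82.04 CPM in marrow, against 1.88 and 2.26 CPM in MSC. Gbp2, a guanylate-binding protein with near copies in the genome, and Bst2 were lower in marrow, at -2.36 and -0.72.

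Immediate early and heat shock genes were lower in marrow for 13 of 15. Jun had 5.06, 6.99 and 7.27 CPM in marrow, against 112 and 97.6 CPM in MSC, a log2 fold change of -4.02 (SE 0.18, edgeR adjusted p = 6.1e-06). Fos was uneven within MSC, with 16.4, 3.52 and 9.36 CPM in marrow, against 134 and 8.07 CPM in MSC, and the groups overlapped although it was called. Of the 21 glycolysis and hypoxia-induced genes tested, 12 were lower in marrow and 4 were higher, and the second MSC library was the higher of the 2 in Ldha, with 350.4, 322 and 406 CPM in marrow, against 421 and 873 CPM in MSC. Mitochondrially encoded genes were higher in marrow for 7 of 13, with a median of 0.57, and mt-Co1 had 9842, 8941 and 11616 CPM in marrow, against 8037 and 6502 CPM in MSC (log2 fold change 0.48, edgeR adjusted p = 0.077). Y-linked genes were detected in both groups, with Ddx3y at 115, 120.1 and 118 CPM in marrow, against 95.3 and 83.4 CPM in MSC, and Xist at no more than 1.15 CPM in any library. With all 5 libraries Fos stood at -2.86, and it was at 0.26 without the first MSC library, with no call, and lost its call without any 1 marrow library, at -3.47, -2.44 and -2.82. The call of Ldha, at -0.85, was lost without the second MSC library, at -0.23, and without any 1 marrow library, at -0.82, -0.76 and -0.93. Of the mitochondrially encoded genes, 2 were called higher without the third marrow library and 4 without the second MSC library. With the replicate number as a block 3 of them were called higher. The gene mt-Co1 was called without the first of MSC, at 0.62. The call of Ddx3y was lost without the second MSC library, at 0.30. Of the glycolysis list, 2 genes in place of 4 were higher without any 1 marrow library or the first of MSC. With the replicate number as a block 1 gene of that list was higher.

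Further genes of the naming rule had no count in marrow and encode secreted proteins. Ereg, a ligand of the epidermal growth factor receptor, had 39.9 and 49.2 CPM in MSC. Sema3c, a guidance factor, had 61.6 and 35.9 CPM in MSC. Gzme, a granzyme gene with near copies beside it in the genome, had 42.5 and 50.9 CPM in MSC, and its reads may be shared among those copies.

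The contrast was repeated in K74R mice, which share no library with WT. There, 5938 of 16141 genes were higher in marrow (36.8%) and 5575 were lower (34.5%). Over the 15459 genes tested in both genotypes, the log2 fold changes had a Pearson correlation of 0.928, a description over genes, which are not independent replicates. Of the 5683 WT genes called higher, 4553 were called higher in K74R, which is 80.1% of the WT list and 80.4% of the K74R list. Of the 5344 called lower, 4448 were called lower in K74R, which is 83.2% of the WT list and 83.0% of the K74R list. A call in the opposite direction was made for 82 and 79 genes of these WT lists.

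**Figure D5:**
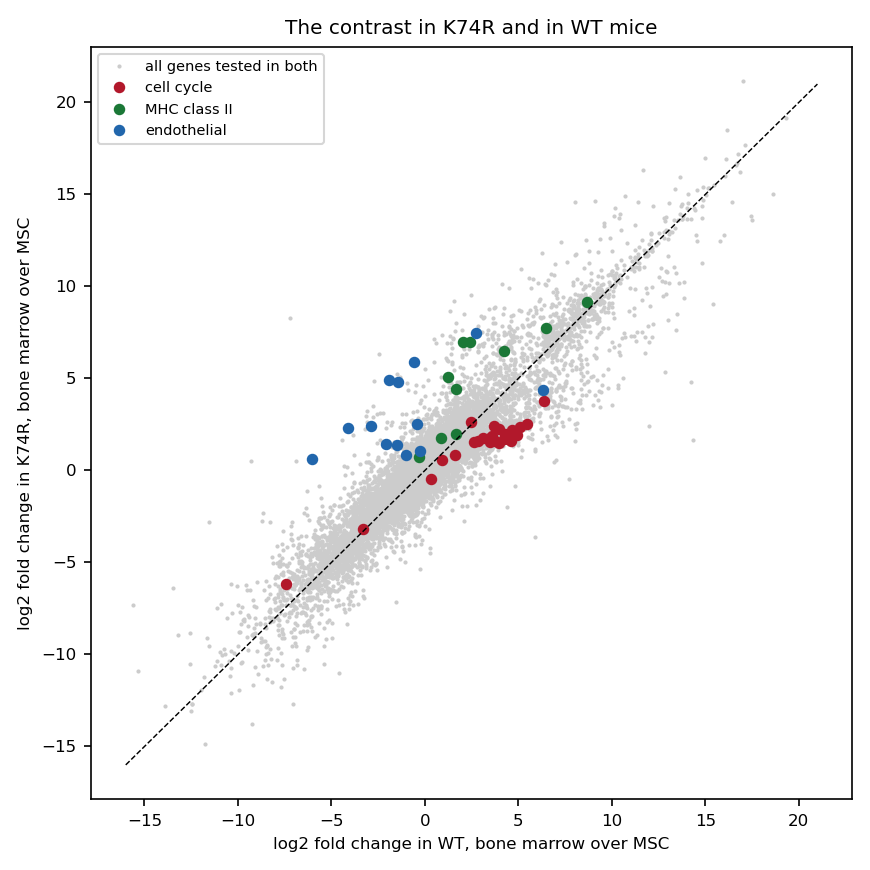
Log2 fold change (marrow over MSC) in K74R (vertical axis) against WT (horizontal axis) for the 15459 genes tested in both. Coloured points are the members of 3 of the lists with many interaction calls, and the dashed line marks equal values. Most cell cycle genes lie below the line, and most endothelial and MHC class II genes lie above it.

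A test of the difference itself, the interaction of genotype and contrast in 10 libraries, called 1219 of 17021 genes higher in the K74R contrast (7.16%) and 1296 lower (7.61%). Of the 27 cell cycle genes, 22 were called lower and none higher. Ccnb1 had 259.7, 249.8 and 209 CPM in K74R marrow and 61.9 and 62.5 CPM in K74R MSC, against 278, 252 and 298 CPM in WT marrow and 10.97 and 7.22 CPM in WT MSC, and its contrast was 2.97 lower in K74R (SE 0.24, edgeR adjusted p = 0.00011). Nek2, Mcm10 and Uhrf1, genes of mitosis and replication, had 3 of the 5 smallest p-values among genes that the naming rule admits. Their contrasts were 2.53, 2.89 and 2.34 lower. Nek2 had 95.97, 100.1 and 94.2 CPM in K74R marrow and 23.3 and 23.97 CPM in K74R MSC, against 103, 93.5 and 95.03 CPM in WT marrow and 4.23 and 3.97 CPM in WT MSC. In both Ccnb1 and Nek2 the marrow libraries of the genotypes overlapped and the MSC libraries did not. The 2515 calls in either direction fell to 1334 without the third WT marrow library, 1507 and 1329 without the second or the third K74R marrow library, and 1274 without the first K74R MSC library.

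Genes of MHC class II took 7 interaction calls of 10 and endothelial genes 8 of 14, all higher in the K74R contrast. Of 23 monocyte and macrophage genes, 10 were called higher and 3 lower. Of 21 glycolysis and hypoxia-induced genes, 11 were called lower and none higher. Cd74 had 221, 216 and 212 CPM in K74R marrow and 6.13 and 6.66 CPM in K74R MSC, against 180.3, 198 and 164 CPM in WT marrow and 93.6 and 63.9 CPM in WT MSC. Cxcr4 had 319, 328 and 341 CPM in K74R marrow and 7.27 and 3.86 CPM in K74R MSC, against 252, 254 and 212 CPM in WT marrow and 200.1 and 143 CPM in WT MSC, a difference between the contrasts of 5.40 (SE 0.33, edgeR adjusted p = 6.3e-05). Pecam1 had 85.9, 102 and 103 CPM in K74R marrow and 3.52 and 2.86 CPM in K74R MSC, against 72.9, 102 and 79.7 CPM in WT marrow and 101 and 543 CPM in WT MSC. In each of these 3 genes both K74R MSC libraries were below both WT MSC libraries.

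The macrophage and endothelial marker sums hold some of the genes called, so they are no separate evidence. Csf1r, Adgre1, C1qa, C1qb and C1qc are macrophage markers with an interaction call, and Pecam1 and Cdh5 are such endothelial markers. The 7 macrophage markers summed to 2257 and 4115 CPM in K74R MSC, against 8418 and 6571 CPM in WT MSC, and the 4 endothelial markers to 14.3 and 22.7 CPM in K74R MSC, against 270.1 and 1447 CPM in WT MSC. The 11 stromal markers summed to 12264 and 14452 CPM in K74R MSC, against 8313 and 6338 CPM in WT MSC. Most of that gap lay in Col1a1 and Col1a2. Col1a1 had 3228 and 5016 CPM in K74R MSC, against 2062 and 1014 CPM in WT MSC. Col1a2 had 5648 and 6337 CPM, against 3502 and 2163 CPM. The others did not all go that way. Pdgfra was higher in both K74R MSC libraries, and Itgb1 overlapped between the genotypes. Thy1 was lower, with 1.70 and 2.49 CPM in K74R MSC, against 8.94 and 49.4 CPM in WT MSC. The part of these marker sums in the interaction calls was not tested. Erythroid and neutrophil markers were at most 3.58 CPM in sum in each of the 4 MSC libraries.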

How the data were processed

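RNA-seq counts per gene were deposited by the authors as 1 table of raw counts on GRCm38, made with Trimmomatic 0.38, HISAT2 2.1.0 and featureCounts 1.6.0, with FastQC and MultiQC, per the submitters' processing notes. Neither a strand setting nor an annotation release is stated in the labels. Reads from overlapping or near-identical genes may therefore be shared.

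Genes were filtered with filterByExpr and scaled by TMM within the 5 WT libraries, and tested with edgeR 4.0.16 (glmQLFit and glmQLFTest, Benjamini-Hochberg adjustment, threshold 0.05; glmTreat for a minimum of 2-fold) in R 4.3.3. Alternatives used DESeq2 1.42.0 and limma 3.58.1. The interaction was fitted on 10 libraries, and the 6 tumor libraries entered an alternative alone. In simulated counts for 15648 genes of the WT contrast, 93% of 2-fold and 100% of 4-fold changes were recovered. The simulation changed 200 genes and gave all genes the same dispersion in both groups. The real MSC libraries differed more from each other than those of marrow did. These shares are therefore not the power of the real contrast. CPM uses TMM-scaled totals, and TPM divides by annotated length. A group at 0 was given 3 counts for fold bounds. Promoters are from RefSeq.

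Named genes were the 12 with the largest fold change in each direction at an average log2 CPM of at least 4 without overlap. To these were added the 10 with most counts per group, up to 3 per direction and list, and the gene pairs and markers. The last were the 5 with the smallest interaction p-values at an average log2 CPM of at least 0. The sets of 12 and of 5 left out genes with only a predicted-gene or clone name. Further members of lists were named after their values were seen. Members, lists and pairs were chosen with earlier results of these data known.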

Additional observations from a re-analysis of the deposited data

Results flagged for a closer look

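The contrast of marrow with MSC was compared between genotypes by an interaction term, and 44 of the 201 genes tested that the text names had a call (edgeR's quasi-likelihood test, adjusted p under 0.05 over 17021 genes). Values are the log2 fold change in K74R minus that in WT, so a positive value means that the K74R contrast lies further toward marrow. Genes were named for the WT contrast or for this difference, so their number is no estimate of how common such calls are.

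Among cell cycle genes and the lamin Lmnb1, the difference was -2.97 for Ccnb1, -2.62 for Mki67, -2.30 for Mcm5, -2.89 for Mcm10, -2.53 for Nek2, -2.34 for Uhrf1 and -2.19 for Lmnb1. Among macrophage and phagocyte genes it was 1.44 for Adgre1, 1.53 for Csf1r, 1.41 for C1qa, 1.36 for C1qb, 1.29 for C1qc, 2.20 for Apoe, 0.86 for Lyz2, 0.97 for Ctsb, 1.39 for Laptm5, 1.48 for Cxcl16, -6.41 for Cd5l, -1.81 for Ccl6 and -1.63 for Axl.

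Among genes of blood cell types it was 3.88 for Cd74, 5.40 for Cxcr4, 3.66 for Ighm, -6.36 for Igkc, 3.07 for Kit, 1.5 for Lmo2, 1.21 for Runx1, -4.45 for Mmp8 and -1.36 for Rsad2. Igkc had 412, 540.4 and 463 CPM in K74R marrow and 0.341 and 1.49 CPM in K74R MSC, against 317, 353 and 349 CPM in WT marrow and 0 and 0 CPM in WT MSC, so its difference rests on a group with no count and depends on the prior count of the fit. Among endothelial genes and the water channel Aqp1 it was 6.84 for Pecam1, 6.43 for Cdh5 and -2.92 for Aqp1.

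Among stromal and matrix genes it was 2.89 for Ctsk, 3.06 for Mmp13, 1.14 for Timp2, 2.23 for Prelp, -1.81 for Col14a1, 3.92 for Thy1, 1.10 for Itgb5 and 2.06 for Tgfbr2. For the remaining genes it was 1.86 for Jag1, 4.29 for Cdkn2b, -1.24 for Lmna and -2.14 for Ldha. Cdkn2b had no count in WT marrow and 0.0648, 0.198 and 0.133 CPM in K74R marrow, so its value too depends on the prior count. The part of the lower macrophage and endothelial marker sums of K74R MSC in these differences was not tested.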

How the results depend on the processing

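Other scalings (RLE, upper quartile, library size alone), filters on low counts, tools (DESeq2, limma-voom), robust dispersion, removal of globin, immunoglobulin and mitochondrial genes, a fit of all 16 libraries, and a block on the replicate number left the count of genes that differed in WT between 9974 and 12651, against 11374, and the count beyond 2-fold between 5385 and 7209, against 6488. Leaving out each library gave 10019 to 11126 and 5868 to 6496, and every one of these counts was within 1.5 times its main value. The K74R count ranged from 10227 to 12715, against 11513. The interaction counts were less stable: with 1 library left out they ran from 1274 to 3712 in all, 516 to 1747 higher and 688 to 1965 lower, against 2515, 1219 and 1296, and 1964 genes were lower with all 16 libraries. The cause was not tested.

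With the replicate number as a block, 9974 genes differed in WT and 1749 in the interaction, 832 of them lower. The numbers were not taken as pairing. Same-numbered libraries had correlations of deviations of 0.17 and 0.09 in WT, over 2 pairs. The third marrow library, which has no MSC library of its number, had 0.09 with the second MSC library. With 2 MSC libraries the deviations mirror each other, so these values can neither show nor exclude pairing.

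Of 3408 values of the 201 named genes under these alternatives, 3307 kept direction and call, 62 lost the call, 24 gained it and 15 changed sign. Fos, called with all libraries, changed sign: it ran from -3.77 to 0.26 with 1 library left out. The others that changed sign were not called: Actb ran from -0.081 to 0.20, Adipoq from -0.23 to 0.73, Angpt1 from -0.41 to 0.028, Axl from -0.23 to 0.018, Id2 from -0.95 to 0.15, Lcp1 from -0.30 to 0.13, Myh9 from -0.22 to 0.19, Runx2 from -0.19 to 0.010 and Tgfbi from -0.11 to 0.64. Adipoq was at -0.028 under the block, and Myh9 at 0.048 with upper quartile scaling and 0.024 with library size alone. Beside single libraries and the block, calls were lost for Arpc1b (upper quartile scaling, library size alone, at least 1 CPM in 2 libraries, abundant genes removed), Flna (upper quartile), Ldb1 (no filter), Cxcr4 (10 libraries), Ddx3y and Nt5e (10 or 16 libraries), Dcn, Pecam1, Ibsp and Fos (limma-voom), Ibsp and Fos (robust dispersion) and Fos (DESeq2). Of 1428 counts of list members, 43 moved by more than 1.5 times, 6 of them by more than 3 genes. No scaling moved the median of all genes in WT by over 0.1, and in K74R library size alone placed it at 0.14, against 0.04. Each scaling fixes the library total or the bulk of genes, so these medians cannot show a shift common to most genes. Small fold changes, such as those of Cxcr4, Insr, Flna and Ldb1, are relative to that choice. With 2 MSC libraries, differences between them limit the precision more than depth does.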
